A study of Mus musculus with 32 samples.

Results

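The comparison asked which liver transcripts answered systemic lipopolysaccharide (LPS) differently at 20 h in mice without the transcription factor E2F1 than in mice with it. It is the interaction of genotype and LPS: the LPS change in knockouts, 20 h minus saline, less the LPS change in wild type. The arrays were chosen by their labelled genotype, treatment and time, which gave 24 of the 32 arrays of the series, 1 per mouse. The groups were 6 E2F1-/- mice (KO) at 20 h after LPS, 6 KO mice given saline, 6 E2F1+/+ mice (WT) at 20 h after LPS and 6 WT mice given saline. The saline livers were collected at 20 h as well. The strain label of the knockouts joins B6;129 with E2F1-/-, and that of wild type is B6x126 F2, while the titles of the wild-type samples read B6129. Whether the groups were litter mates is not given. The strain label changes with the genotype in every group, so loss of E2F1 and strain background cannot be told apart here. Sex, dose and the deleted part of E2f1 are not given in the labels. A positive interaction means that LPS moved a transcript further up, or less far down, in KO than in WT livers.

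E2F1 binds promoters together with a DP partner, is held in check by the retinoblastoma protein and drives genes of DNA replication when a cell enters S phase. LPS, from the outer membrane of Gram-negative bacteria, is sensed by Toll-like receptor 4 on macrophages and other cells. In the liver the cytokines that follow induce acute-phase proteins in hepatocytes, draw in neutrophils, and turn down bile acid, lipid and drug metabolism.

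The labels name liver as the tissue, while their extraction text speaks of lung. All 8 hepatocyte markers were measured, and Alb, which encodes albumin, lay between 9.18 and 11.2 on the log2 scale above the 75th percentile of its array, the scale of all levels given here. Of 7 lung epithelium markers 3 were measured. The 75th percentile of the signal itself ranged from 281 to 1144, with the lowest value in KO saline replicate 1. On 23 or 24 arrays 18680 gene names were tested, and the number of arrays limits the precision. The p-values measure the spread between these animals.

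Among the 24 a pair of KO arrays did not resemble their groups. Each array was scored along the WT response at 20 h, where 0 is the mean of WT saline and 1 the mean of WT LPS. The 6 KO LPS arrays scored 0.95 to 1.06 in all but replicate 4, which stood at 0.34. Its profile correlated best with WT saline, at 0.336, and at 0.333 with KO saline. Its Saa1 read 9.94, within the 9.53 to 10.5 of KO LPS arrays, against 4.88 to 9.51 in WT saline. The neutrophil marker Lcn2 read 7.64 there, against −3.04 to 3.91 in WT saline and −2.98 to 2.15 in KO saline without replicate 1. So it did not resemble saline livers in these 2 genes. KO saline replicate 1 scored 0.72, against 0.01 to 0.12 in the other 5 KO saline arrays. The WT LPS arrays scored 0.80 to 1.13 and the WT saline arrays −0.04 to 0.10. On the score of the WT response at 6 h, KO saline replicate 1 reached 0.92, and its profile correlated best with KO LPS at 6 h. On the same slide KO LPS 6 h replicate 1, which is not among the 24, scored 0.12 on the 20 h score and 0.15 on the 6 h score and correlated best with KO saline; whether these labels were exchanged was not tested. KO LPS replicate 6 reached 0.90 on the 6 h score, against 0.55 to 0.66 in KO LPS replicates 1, 2, 3 and 5. Results are therefore given for 24 arrays, for 23 arrays without KO saline replicate 1 and, where it matters, for 22 arrays also without KO LPS replicate 4, a choice made after seeing the data. Values stand for 23 arrays where no number is given.

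**Figure D1:**
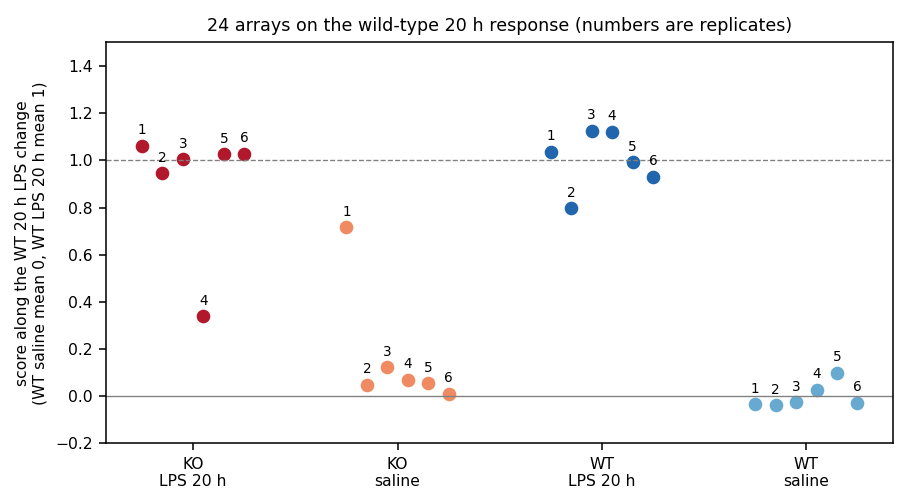
Score of each array along the WT response to LPS, one point per array by group, where 0 is the mean of WT saline and 1 the mean of WT LPS, both at 20 h. KO saline replicate 1 lies at 0.72 and KO LPS replicate 4 at 0.34 on the 20 h score, each away from the other 5 arrays of its label.

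LPS changed a large share of transcripts in each genotype, and few passed the test of the interaction. With 24 arrays 8 names were called at an adjusted p of 0.05 (limma, Benjamini-Hochberg over all names), 3 higher (0.0161% of those tested) and 5 lower (0.0268%) in the KO response, together 0.0428%. Without KO saline replicate 1 there were 17 (0.091%), 3 higher (0.0161%) and 14 lower (0.0749%), and all 8 were among them. With 22 arrays there were again 17, 4 higher and 13 lower, of which 15 were shared with the 23-array calls. At an unadjusted p of 0.05, 1270 names passed with 24 arrays (6.8%) and 1317 with 23 (7.05%); with 23 arrays 537 were higher in the KO response (2.87%) and 780 lower (4.18%). With the slide as a block 3 names were called (1 with 24 arrays), and of the 17 Adamts13 and C330011K17Rik stayed. The sizes depended on the background correction. With normexp background correction and quantile normalization all 17 interactions were smaller, 16 of them by over 1.5 times, and the same 2 genes stayed called. In the authors' deposited processed table, which holds 15 of the 17, 12 were smaller by over 1.5 times and 5 were called. With the scan day as a block 37 names were called (19 with 24 arrays). Within scan day 1 alone there were 3 and within scan day 2 alone 0, where limma gave 1349 names at an unadjusted p of 0.05; the third scan day holds no WT saline array. All 17 kept the sign of their interaction within each of these days. Leaving out single arrays gave 7 to 31 calls (4 to 17 from 24 arrays). The split of higher and lower calls depended on the scaling: quantile normalization and median centring each gave 5 higher and 11 lower with 23 arrays, and 4 and 4, and 5 and 3, with 24.

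The LPS change itself was called in 6374 names in KO (34.1%; 4938, 26.4%, with 24 arrays) and in 7705 in WT (41.2%; 7057, 37.8%, with 24 arrays). With 23 arrays 15.7% of names rose and 18.5% fell in KO, and 18.7% rose and 22.5% fell in WT. The genotypes differed at 20 h of LPS in 83 names (0.444%) and on saline in 59 (0.316%). With 24 arrays these were 53 (0.284%) and 65 (0.348%). With 23 arrays 5009 names were called in both genotypes, which is 78.6% of the KO calls and 65.0% of the WT calls, and 4992 of them had the same sign. Across names, which are not independent replicates, the KO change and the WT change had a Pearson r of 0.877 with 23 arrays, 0.868 with 24 and 0.889 with 22. No array enters both changes, but the arrays of a genotype share its strain. The slope of KO on WT was 0.84 with 23 arrays, 0.73 with 24 and 0.95 with 22, so it depended on those 2 libraries. The slope of WT on KO was 0.92 with 23 arrays and 1.03 with 24. The SD of the change across names was 1.18 in KO and 1.23 in WT with 23 arrays (1.04 and 1.23 with 24). Error in the change on the x axis lowers a slope, so neither slope alone measures relative size. The median standard error of an interaction was 0.45, and 29.1% of names had a 95% confidence interval that lay wholly within 1 log2 unit of 0. For the other names the interval reached a difference of 1 log2 unit or more.

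**Figure D2:**
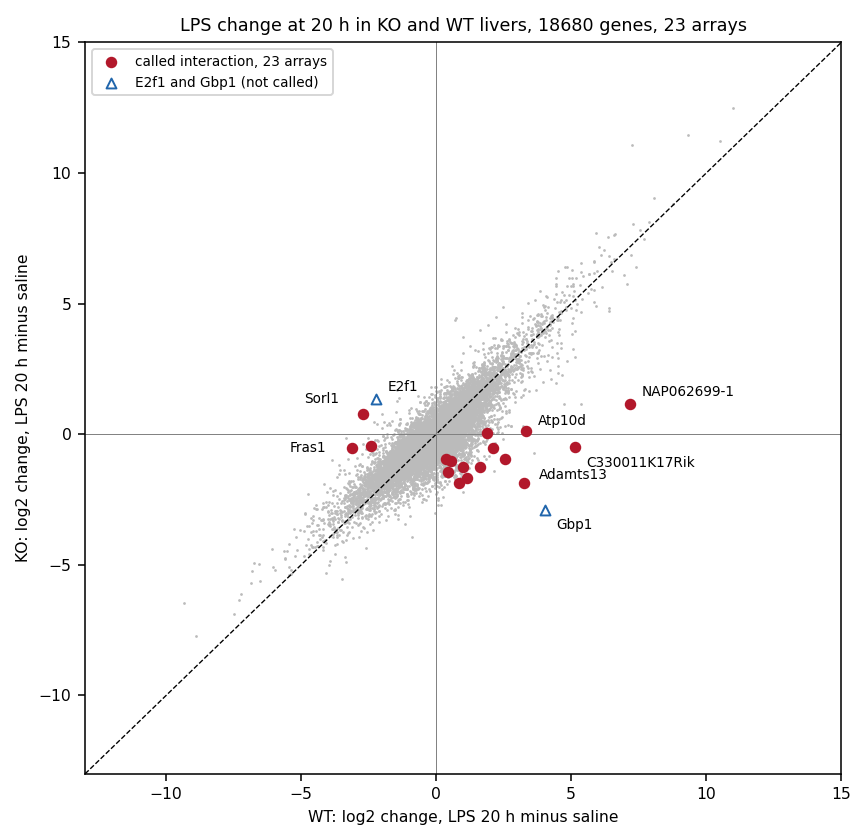
Log2 change at 20 h of LPS against saline in KO livers (y) and WT livers (x), one point per gene name, 23 arrays; the dashed line marks equal change. Most names lie along the line, and the 17 called names (filled) lie away from it, 14 below and 3 above; E2f1 and Gbp1 (triangles) were not called.

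E2f1, the targeted gene, was read by a probe near the 3′ end of the gene (chromosome 2, 154386004 to 154386063, mm9). Since the deleted part is not given, this signal does not check the deletion. Its level was −4.01, −2.09 and −0.22 (lowest, median and highest) in KO LPS livers, −4.55, −3.10 and −2.39 in KO saline, −6.21, −5.81 and −4.03 over the 5 WT LPS arrays with a value, and −5.04, −3.36 and −2.29 in WT saline. WT LPS livers were the low group, with 2 arrays well above background; they lay below all KO LPS arrays, and their highest array overlapped both saline groups. E2f1 was 3.52 ± 0.64 log2 units (SE) higher in KO than in WT livers at 20 h (limma, adjusted p = 0.012) and −0.04 apart on saline. It fell by 2.21 log2 units with LPS in WT (adjusted p = 0.00825), and its KO change was 1.35 (adjusted p = 0.106). The interaction was 3.56 ± 0.90 (adjusted p = 0.173; 3.39 ± 0.88, adjusted p = 0.304, with 24 arrays), which was not called, and the other probe gave 1.72. The interaction was 1.44 with normexp and 1.61 by the deposited values.

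The gene with the smallest p was C330011K17Rik, now Zfp874a, which encodes a zinc finger protein (probe on chromosome 13, 67541780 to 67541839, mm9). Its level was −0.18, 0.48 and 0.80 in KO LPS livers, −3.27, 0.81 and 1.16 in KO saline, −0.63, 0.09 and 0.68 in WT LPS, and −6.43, −4.67 and −4.36 in WT saline. WT saline livers lay below every other array, 2 of the 6 well above background, and the low KO saline value was replicate 1. On saline the gene was 5.97 log2 units higher in KO (adjusted p = 1.05e-10), and at 20 h the difference was 0.35 (adjusted p = 0.84). LPS raised it by 5.13 in WT (adjusted p = 9.34e-10) and its change in KO was −0.49 (adjusted p = 0.26). The interaction was −5.62 ± 0.45 (adjusted p = 2.71e-07) and −4.92 ± 0.78 (adjusted p = 0.0103) with 24 arrays. With normexp it was −2.91 and in the deposited table −3.59, both called; with 24 arrays it was called in neither, nor with the slide as a block.

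Adamts13 encodes the protease that trims von Willebrand factor in plasma and is made largely by hepatic stellate cells. Its probe lies on chromosome 2 at 26862185 to 26862244 (mm9), 127.5 Mb from that of E2f1. It read −4.30, −3.87 and −2.71 in KO LPS livers, −2.04, −1.99 and −1.37 in KO saline without replicate 1, which read −2.56, −4.80, −3.95 and −2.63 in WT LPS, and −7.93, −7.16 and −5.78 in WT saline. WT saline lay below every other array and was not well above background on any of its 6, and KO saline lay above every other array. On saline Adamts13 was at least 8.86-fold higher in KO livers (adjusted p = 2.18e-07), and at 20 h the genotypes differed by 0.08. It was at least 2.29-fold higher with LPS in WT (adjusted p = 2.54e-06) and fell by 1.87 log2 units in KO (adjusted p = 0.00187). The interaction was −5.12 ± 0.59 (adjusted p = 0.000122; −4.99, adjusted p = 0.000189, with 24 arrays). It was −1.49 with normexp and −2.01 in the deposited table, and called in both. Of 17 stellate cell markers, 7 fell and 3 rose with LPS in each genotype, and none had a called interaction. Of all names 18.5% fell and 15.7% rose in KO, and 22.5% fell and 18.7% rose in WT.

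The 3 genes with a positive call were all highest in WT saline livers. Sorl1 encodes an endosomal sorting receptor (probe on chromosome 9, 41776064 to 41776123, mm9). It read −6.72, −5.77 and −4.47 in KO LPS livers, −6.80, −6.40 and −5.95 in KO saline, −7.41, −6.39 and −6.02 in WT LPS, and −4.09, −3.78 and −3.59 in WT saline, so WT saline lay above all other arrays. It was at least 1.79-fold lower in KO than in WT on saline (adjusted p = 0.000126) and at least 2.41-fold lower with LPS in WT (adjusted p = 9.18e-07). The interaction was 3.48 ± 0.45 (adjusted p = 0.000587; 3.40 with 24 arrays). It was 0.61 (adjusted p = 0.0605) with normexp and 3.02 (adjusted p = 0.0623) with the slide as a block.

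Fras1, an extracellular matrix protein of the basement membrane, read −6.90, −6.34 and −5.45 in KO LPS livers, −6.23, −5.88 and −5.05 in KO saline, −7.40, −6.47 and −5.89 in WT LPS, and −4.46, −3.39 and −2.55 in WT saline. WT saline held the only arrays well above background, 5 of 6, so a fold is a lower bound: at least 2.35-fold lower in KO on saline and at least 3.22-fold lower with LPS in WT. Its interaction was 2.59 ± 0.44 (adjusted p = 0.0178), with 0.60 (adjusted p = 0.0899) under normexp and 2.94 (adjusted p = 0.0819) with the slide as a block. Both KO groups lay near background, so this interaction rests on the WT saline signal and the KO change was not measured. Ccr3, an eotaxin receptor of eosinophils, read −5.00, −4.55 and −4.23 in KO LPS livers, −4.34, −4.08 and −3.72 in KO saline, −5.35, −4.96 and −4.51 in WT LPS, and −3.26, −2.79 and −1.64 in WT saline. WT saline again lay above every other array. Its interaction was 1.94 ± 0.34 (adjusted p = 0.0206), with 0.79 (adjusted p = 0.0899) under normexp, and the other probe of Ccr3 gave 0.08.

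**Figure D3:**
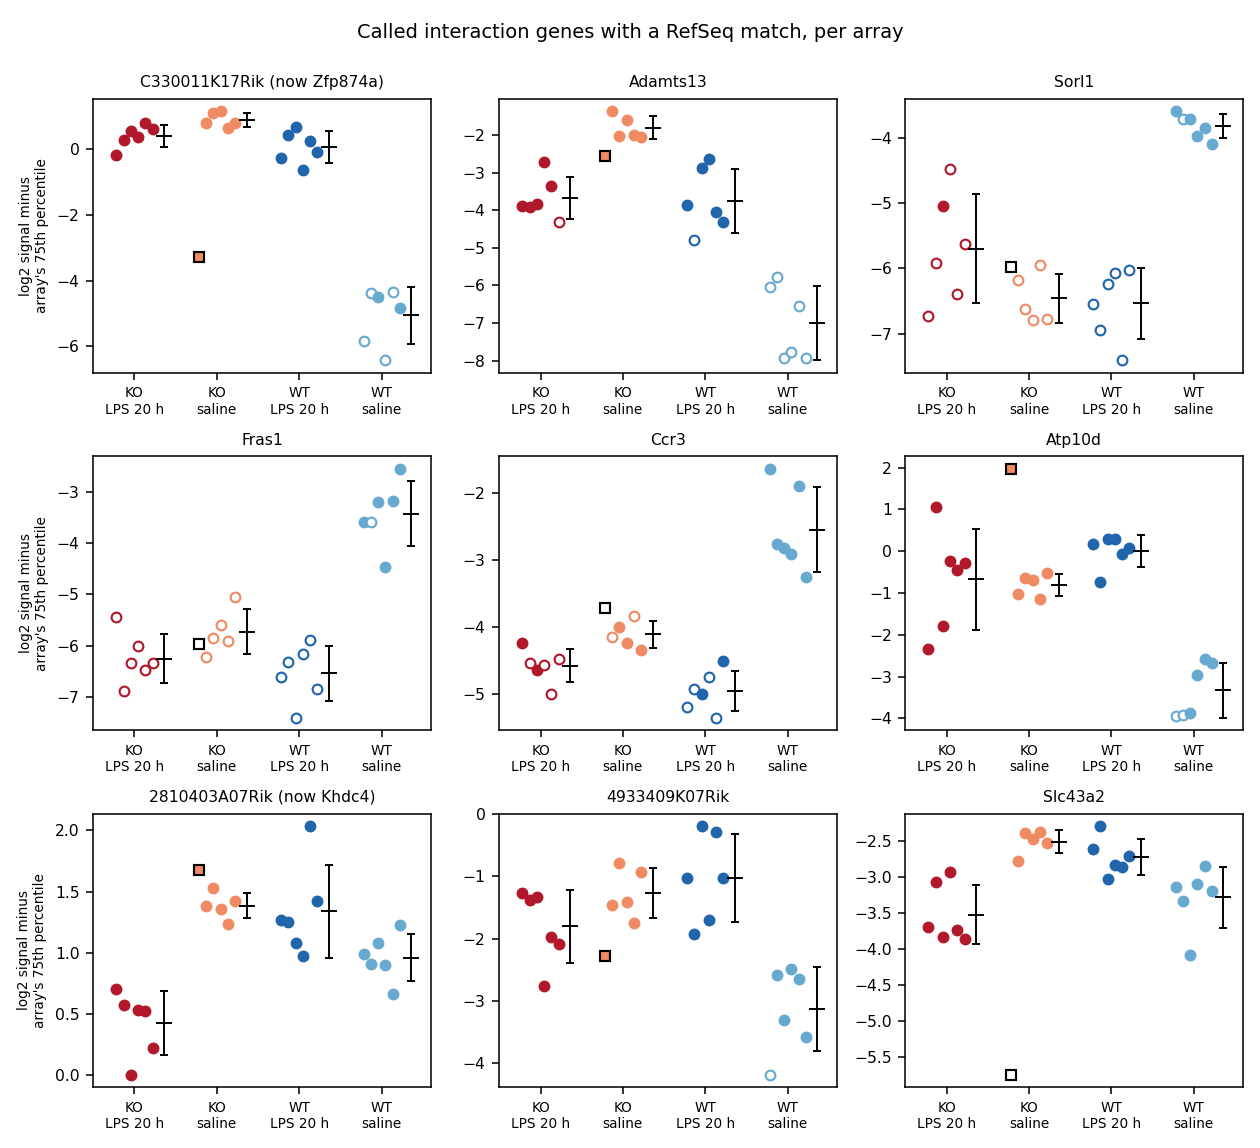
Log2 level of the 9 called genes with a RefSeq match in every array by group, with filled points well above background, open points not, and KO saline replicate 1 as a black-edged square; bars give the mean and SD, KO saline without replicate 1. WT saline lies apart from the other groups in Zfp874a, Adamts13, Sorl1, Fras1, Ccr3 and Atp10d.

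Atp10d and 4933409K07Rik rose with LPS in WT, and their KO change was not called. Atp10d, a phospholipid flippase, read −2.33, −0.36 and 1.04 in KO LPS livers, −1.14, −0.67 and 1.97 in KO saline, −0.74, 0.12 and 0.30 in WT LPS, and −3.95, −3.41 and −2.58 in WT saline; its highest KO saline value was replicate 1. WT saline lay below all other arrays. It rose by 3.33 log2 units in WT (adjusted p = 2.05e-06), against 0.14 in KO (adjusted p = 0.84). The interaction was −3.19 ± 0.59 (adjusted p = 0.0339; −3.65, adjusted p = 0.0538, with 24 arrays), and −2.94 in its other probe. 4933409K07Rik rose by 2.10 in WT (adjusted p = 4.79e-05), with −0.53 in KO, and its interaction was −2.64 ± 0.50 (adjusted p = 0.0346; −2.47, adjusted p = 0.0623, with 24 arrays).

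In 2810403A07Rik, now Khdc4, a KH-domain RNA-binding protein that acts in splicing, the order of groups differed. It read 0.00, 0.53 and 0.70 in KO LPS livers, 1.24, 1.40 and 1.68 in KO saline, 0.97, 1.26 and 2.04 in WT LPS, and 0.66, 0.95 and 1.23 in WT saline. KO LPS livers were the low group, below all 6 WT LPS arrays and all KO saline arrays. LPS lowered it by 0.96 in KO (adjusted p = 0.000386), its WT change was 0.38 (adjusted p = 0.088), and at 20 h it was 0.91 lower in KO (adjusted p = 0.015). The interaction was −1.34 ± 0.25 (adjusted p = 0.0346; −1.39, adjusted p = 0.0304, with 24 arrays), and its other probes gave −0.59 and −1.05.

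Slc43a2, a transporter of neutral amino acids, read −3.86, −3.71 and −2.92 in KO LPS livers, −5.74, −2.49 and −2.37 in KO saline, −3.03, −2.76 and −2.29 in WT LPS, and −4.07, −3.17 and −2.84 in WT saline. The lowest KO saline value was replicate 1, and the call rested on leaving it out: the interaction was −1.58 ± 0.30 (adjusted p = 0.0376) with 23 arrays and −1.04 (adjusted p = 0.808) with 24, and −0.11 in the other probe.

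Of the 17 called names 9 matched a RefSeq gene. The other 8 are probes with no RefSeq match here, named after their values were seen. NAP062699-1 had an interaction of −6.01 ± 0.85 (adjusted p = 0.00167). It read 1.14, 1.99 and 4.44 in KO LPS livers, −2.33, 0.87 and 2.38 in KO saline, 0.83, 1.44 and 3.71 in WT LPS, and −6.19, −5.80 and −2.86 in WT saline. WT saline was well above background on 1 of 6 arrays, and the interaction was −3.09 (adjusted p = 0.0899) with normexp and −3.82 (adjusted p = 0.0258) in the authors' deposited table. The rest were BB646187 (−1.90), TC1632596 (−2.26), TC1605825 (−2.83), NAP123224-1 (−1.87), 9330159N05Rik (−2.72), ENSMUST00000107980 (−3.50) and D4Ertd681e (−2.88). The probe of ENSMUST00000107980 lies 0.25 Mb from that of 4933409K07Rik on chromosome 4. No called name lay within 10 Mb of E2f1, among 219 tested there, and 2 lay on chromosome 2.

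In 12 of the 17 called names the genotypes differed more on saline than at 20 h, beside 45.0% of all names, and in 5 more at 20 h. Of the 8 called with 24 arrays, 7 differed more on saline, beside 49.7% of all names. The saline difference passed its own test in 12 of 17, beside 0.316% of all names. That at 20 h passed in 4 (2810403A07Rik, BB646187, TC1605825 and D4Ertd681e), beside 0.444% of all names, and none of the 17 passed both. The interaction is the difference between these 2, and shares their arrays. In 7 of 17 WT saline lay below or above every other array, against 65 of all names tested (0.348%); the choice of called names favours such a pattern. The WT change was called in 14 of 17 and the KO change in 8, beside 41.2% and 34.1% of all names. Of the 17, 9 were called in WT alone, 3 in KO alone and 5 in both. Of all 18680 names 7705 were called in WT and 6374 in KO, and 5009 of these in both. The interaction is made of these 2 changes, so the choice of called names favours a difference between them.

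**Figure D4:**
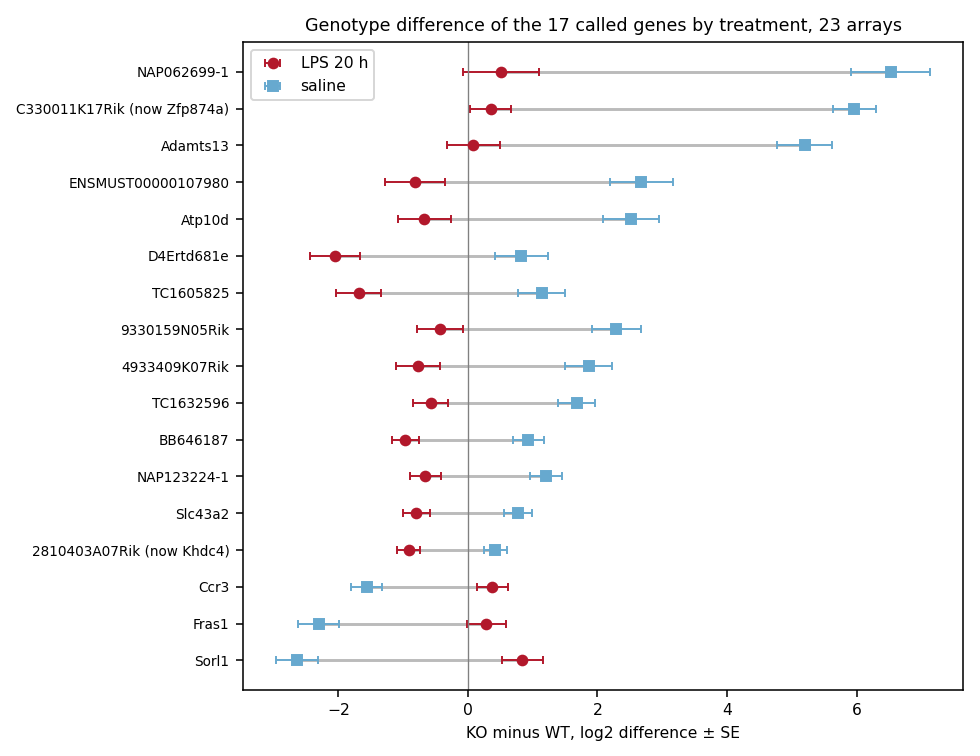
KO minus WT log2 difference with its standard error for the 17 called names, at 20 h of LPS and on saline, 23 arrays. The difference is larger on saline in 12 of the 17 and larger at 20 h in the other 5.

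RefSeq promoters (GRCm38.p6, 250 bases before to 50 after the start) were searched on both strands for the E2F site core, spelled TTCCCGC or, as variants of it, with the letters TTCGCGC, with the letters TTGCCGC, or with the letters TTGGCGC. Of 9 called RefSeq genes 6 had a promoter in the table and 1 of these (16.7%) held a match, against 2024 of 11789 genes tested here (17.2%) and 2936 of 27025 with a promoter in the table (10.9%). The match was in 1 of the Sorl1 promoters, in 2 copies at −143 and −47 from the start, shown in capitals below. Another Sorl1 promoter, chr9:42077164-42077463, held no match and is not shown. A gene was counted where any of its promoters held a match. The promoters of Adamts13 and Zfp874a, the other genes with the smallest p, held no such letters. The 3 windows are shown because these are the RefSeq genes with the smallest p for the interaction.
Sorl1, chr9:42124248-42124547, minus strand: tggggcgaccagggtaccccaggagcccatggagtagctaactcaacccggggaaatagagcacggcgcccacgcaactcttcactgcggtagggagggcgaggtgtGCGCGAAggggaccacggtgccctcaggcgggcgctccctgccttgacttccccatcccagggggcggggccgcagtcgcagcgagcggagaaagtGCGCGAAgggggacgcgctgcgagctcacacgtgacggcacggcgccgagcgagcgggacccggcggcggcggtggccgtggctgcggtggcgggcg
Adamts13, chr2:26973166-26973465, plus strand: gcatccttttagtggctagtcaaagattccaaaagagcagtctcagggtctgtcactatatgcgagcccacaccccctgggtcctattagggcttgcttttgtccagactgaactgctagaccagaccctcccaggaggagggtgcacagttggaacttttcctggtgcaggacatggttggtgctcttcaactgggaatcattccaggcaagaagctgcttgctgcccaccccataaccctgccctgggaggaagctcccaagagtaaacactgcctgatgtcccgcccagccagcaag
Zfp874a, chr13:67451575-67451874, minus strand: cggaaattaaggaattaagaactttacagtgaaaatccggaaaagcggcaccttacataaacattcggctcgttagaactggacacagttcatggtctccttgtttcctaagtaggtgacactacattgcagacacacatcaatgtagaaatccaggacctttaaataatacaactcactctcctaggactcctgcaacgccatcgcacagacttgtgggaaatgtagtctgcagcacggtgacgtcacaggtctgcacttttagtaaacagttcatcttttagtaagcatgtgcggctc

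Some transcripts differed strongly at 20 h without passing the test of the interaction. Gbp1, now Gbp2b, an interferon-induced guanylate-binding protein, read −6.44, −5.37 and −4.65 in KO LPS livers, −5.26, −2.24 and −1.30 in KO saline, −4.20, 2.80 and 4.74 in WT LPS, and −3.01, −2.35 and −0.08 in WT saline. KO LPS livers lay below all WT LPS arrays, none of the 6 was well above background, and Gbp1 was at least 102-fold lower there (adjusted p = 0.00139). Its interaction was −6.90 ± 1.53 (adjusted p = 0.0922; −6.44, adjusted p = 0.228, with 24 arrays), and on saline the difference was −0.42.

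Man2a2, a mannosidase of the Golgi, read 0.89, 1.33 and 1.49 in KO LPS livers, 1.61, 2.02 and 2.33 in KO saline, −0.35, 0.19 and 0.73 in WT LPS, and 1.94, 2.38 and 2.58 in WT saline. WT LPS lay below every other array. At 20 h it was 1.06 higher in KO (adjusted p = 0.00935), with an interaction of 1.33 ± 0.28 (adjusted p = 0.0617); its other probes gave 0.71 and 0.07, above background on 24 and 22 arrays, and −1.71, above background on 5. Cyp8b1, the sterol 12-alpha-hydroxylase that sets the make-up of bile acids, read 0.45, 2.03 and 2.84 in KO LPS livers, −0.57, 2.77 and 3.12 in KO saline, −2.17, 0.25 and 0.89 in WT LPS, and 2.25, 3.15 and 3.85 in WT saline. At 20 h it was 1.92 higher in KO (adjusted p = 0.0418, and 0.209 with 24 arrays), and its interaction was 2.32 ± 0.61 (adjusted p = 0.182).

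Other uncalled genes among those with the smallest p were Arsk, a lysosomal sulfatase, at 1.62 ± 0.32 (adjusted p = 0.0501; −2.28 in its other probe) and Slc39a4, a zinc importer, at 1.92 ± 0.42 (adjusted p = 0.0885). Kcnq1ot1, an imprinted non-coding RNA, stood at −1.40 ± 0.29 (adjusted p = 0.0625), and Mogat1, a monoacylglycerol acyltransferase, at −1.83 ± 0.40 (adjusted p = 0.0907). Mogat1 was 1.56 higher in KO on saline (adjusted p = 0.0115) and fell by 1.63 with LPS in KO (adjusted p = 0.000202), and its WT change was 0.20.

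Aqp11, an aquaporin of the endoplasmic reticulum, fell with LPS by 1.12 log2 units in KO (adjusted p = 0.0133) and by 2.81 in WT (adjusted p = 9.17e-07). At 20 h it was 1.73 higher in KO (adjusted p = 0.0131), and its interaction was 1.69 ± 0.47 (adjusted p = 0.22). Mov10, an RNA helicase, fell by 1.40 in WT (adjusted p = 0.000221), and its KO change was 0.09; its interaction was 1.49 ± 0.38 (adjusted p = 0.178). Erp27, a chaperone of the disulfide isomerase family, rose by 4.18 in KO (adjusted p = 5.69e-08) and by 1.94 in WT (adjusted p = 0.000212), with an interaction of 2.25 ± 0.53 (adjusted p = 0.136; 1.57 with 24 arrays). Clec9a, a receptor of cross-presenting dendritic cells, fell by 2.49 in KO (adjusted p = 1.37e-05), its WT change was −0.46, and its interaction was −2.03 ± 0.48 (adjusted p = 0.136). Lgals4, a galectin of the gut epithelium, rose by 2.45 in WT (adjusted p = 0.000124), with 0.07 in KO and an interaction of −2.39 ± 0.63 (adjusted p = 0.182). These genes were thus called for LPS in 1 genotype or both, and none was called for the interaction.

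None of the 8 panel genes had a called interaction. The cytokine Tnf had an interaction of −0.31 ± 0.43 (−1.30 with 24 arrays), Il6 of 0.82 ± 0.69 (−0.18), Il1b of 0.12 ± 0.51 (−0.83) and the chemokine Cxcl1 of 0.30 ± 1.23 (−0.92). With 23 arrays all 4 rose with LPS in KO and in WT; with 24 the KO rise of Tnf (adjusted p = 0.0554), Il1b (0.0556) and Cxcl1 (0.0623) was not called, and that of Il6 was. In each of them replicate 1 was the highest KO saline array, as in Tnf, at 0.74 against −6.02 to −4.38 in the other 5. Saa1, an acute-phase apolipoprotein, had 1.14 ± 0.83 (0.36 with 24 arrays), Vegfa, a vascular growth factor, 0.29 ± 0.37 (0.04) and Alb 0.31 ± 0.30 (0.10). Cyp7a1, which starts the classical bile acid pathway, had 2.87 ± 1.39 (adjusted p = 0.709), with 3.45 on 24 arrays, 1.83 on 22 and 0.77 in its other probe.

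The gene lists gave 1 called member, Adamts13 among 31 coagulation and fibrinolysis genes, so each list is described by its median interaction beside that of all names, 0.05 with 23 arrays and 0.02 with 24. In bulk liver fewer cells of a type and less RNA per cell cannot be told apart. The E2F and retinoblastoma family had a median of 0.39 over 13 genes (0.43 with 24 arrays); 10 of 13 were positive, and E2f1 alone passed an unadjusted p of 0.05. Genes of G1/S and DNA replication had 0.18 over 33, with Cdc45l, a helicase factor, at −1.38 ± 0.45 (adjusted p = 0.359). Of these 33 genes 5 rose and 5 fell in KO, beside 15.7% and 18.5% of all names. In WT 7 rose and 7 fell, beside 18.7% and 22.5%.

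The medians of the innate immune lists differed in sign with and without KO saline replicate 1. The 40 interferon-stimulated genes had a median interaction of 0.67 with 23 arrays, 0.84 with 22 and −0.06 with 24; 39 of 40 were positive with 23 arrays, beside 54.4% of all names, and 19 with 24, beside 51.4%; 4 passed an unadjusted p of 0.05 with 23 arrays. With LPS 35 rose in KO (median change 2.38) and 25 in WT (1.54), beside 15.7% and 18.7% of all names. With 24 arrays 16 rose in KO (1.58) and 15 in WT (1.54), beside 11.7% and 16.8%. The wide gap between the counts with 23 arrays thus rested on leaving out KO saline replicate 1. Oasl1, an antiviral gene of the oligoadenylate synthetase family, stood highest by p, at 2.13 ± 0.75 (adjusted p = 0.435; 1.08 with 24 arrays). The 21 neutrophil markers had 0.85 with 23 arrays and −0.20 with 24, and 18 rose in each genotype; the summed marker level was 8.39 to 10.2 in KO LPS livers, 1.64 to 3.31 in KO saline without replicate 1 and 9.13 in that replicate, 8.08 to 8.82 in WT LPS and 1.93 to 4.74 in WT saline. S100a9, a calprotectin subunit, had 1.63 ± 0.59 (adjusted p = 0.454). Chemokines had 0.38 with 23 arrays and −0.59 with 24.

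The median was positive with 23 and with 24 arrays in many lists. Among these were acute-phase proteins, cholesterol synthesis, complement, and bile acid synthesis and transport. Negative acute-phase proteins, at 0.32 and 0.20, were another, so the sign is not particular to the lists given here. The 30 acute-phase genes had a median of 0.51 (0.14 with 24 arrays), 29 positive. Of these 22 rose in each genotype, beside 15.7% of all names in KO and 18.7% in WT. Crp, C-reactive protein, had 1.32 ± 0.43 (limma, adjusted p = 0.365). The 25 cholesterol synthesis genes had 0.65 (0.90 with 24 arrays and 0.40 with 22), with 24 positive; 14 fell in KO and 21 in WT, by medians of −0.96 and −1.60, beside 18.5% and 22.5% of all names. With 24 arrays 7 fell in KO and 21 in WT, beside 14.7% and 21.0%. With 22 arrays 19 fell in KO, by a median of −1.20, beside 4185 of all 18680 names. The lower KO count with 23 arrays thus depended in part on KO LPS replicate 4. Dhcr7, which catalyses the final step to cholesterol, had 1.38 ± 0.41 (adjusted p = 0.283). Complement had 0.41 over 27 genes and bile acid synthesis and transport 0.32 over 22.

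Among lists of at least 10 measured genes, the unfolded protein and integrated stress response list had the lowest median, −0.35 over 25 genes (−0.74 with 24 arrays, −0.28 with 22). With LPS 7 rose in KO and 17 in WT, beside 15.7% and 18.7% of all names, and with 24 arrays 3 in KO and 16 in WT, beside 11.7% and 16.8%. With 23 arrays 6 of the 25 had an unadjusted p under 0.05, all lower in the KO response, beside 780 of all names (4.18%). Asns, asparagine synthetase, read 1.70, 3.82 and 5.29 in KO LPS livers, 2.67, 3.47 and 3.95 in KO saline, 3.14, 3.78 and 5.18 in WT LPS, and 0.34, 1.17 and 1.77 in WT saline, with an interaction of −2.47 ± 0.71 (adjusted p = 0.247). WT saline lay below all KO saline arrays. Hspa5, the chaperone BiP, had −1.01 and Ddit3, the stress factor CHOP, −0.89, both named after their values were seen. The smaller list of class II antigen presentation, with 8 measured genes, had a median interaction of −0.35 with 23 arrays, −0.27 with 24 and −0.57 with 22. It held no called interaction.

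Among the other cell types, the 19 Kupffer cell and macrophage markers had a median interaction of 0.34 (0.42 with 24 arrays and 0.07 with 22). Of these 9 fell in KO and 13 in WT, beside 18.5% and 22.5% of all names. The 21 sinusoidal endothelial markers had 0.17 with 23 arrays, 0.45 with 24 and −0.24 with 22, and 11 fell in KO and 13 in WT (5 and 12 with 24 arrays), beside 18.5% and 22.5% of all names (14.7% and 21.0%). The sign of this median changed without KO LPS replicate 4. The 20 genes of G2/M and mitosis had 0.44, with 1 rising in KO (15.7% of all names) and 5 falling in WT (22.5%). The 26 genes of the urea cycle and amino acid metabolism had 0.39. Of these 16 fell in each genotype, beside 18.5% of all names in KO and 22.5% in WT. The 15 steroid dehydrogenases and reductases had 0.53 (0.25 with 22 arrays). Of these 13 fell in KO and 14 in WT, beside 18.5% and 22.5%, with median changes of −4.04 and −4.11. None of these lists held a called interaction.

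The 8 hepatocyte markers had a median interaction of 0.33 (0.19 with 24 arrays). Of these 3 fell in KO and 6 in WT, beside 18.5% and 22.5% of all names. With 24 arrays 5 and 6 fell, beside 14.7% and 21.0%. The 3 lung epithelium markers summed to −1.60 to 0.56 in KO LPS livers, −3.17 to −1.35 in KO saline without replicate 1 and 1.22 in that replicate, −0.99 to 1.29 in WT LPS and −3.85 to −1.82 in WT saline. Sftpa1, a surfactant protein, had an interaction of −2.19 ± 0.62 (adjusted p = 0.237). The part of these markers in the results was not tested.

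**Figure D5:**
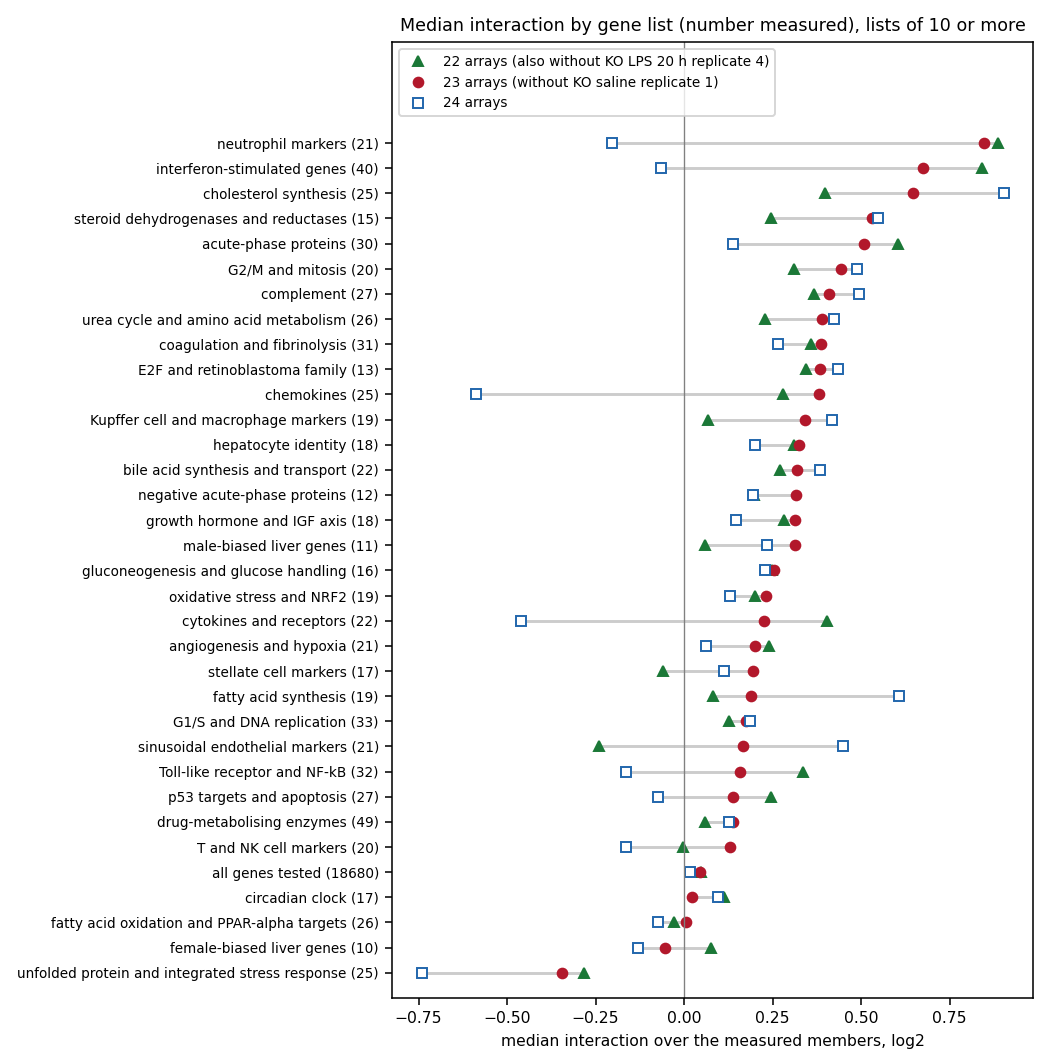
Median interaction (log2) over the measured members of each list with at least 10 measured genes, for 24 arrays (squares), 23 arrays (circles) and 22 arrays (triangles). The interferon-stimulated genes, neutrophil markers and chemokines change sign between 24 and 23 arrays, and the unfolded protein and integrated stress response list is negative in all 3.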

How the data were processed

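The authors put liver RNA on 1-colour Agilent 4x44K mouse arrays; Feature Extraction 10.7.1.1 subtracted background and detrended each array, per the file headers. Each deposited scanner file holds intensity values by spot; the deposited processed table holds log2 values, normalised in a way not given in the sources used here, and served as an alternative. Control and outlier spots (84 to 232 per array) were left out. Each log2 signal was set against the 75th percentile of its array, spots of a probe were averaged, probes well above background on at least 4 of 24 arrays were kept, and the brightest stood for each of 18680 gene names; 14813 matched a RefSeq gene. Of the 32 arrays, the 8 taken at 6 h were not fitted. Group means were fitted with limma 3.58.1 (R 4.3.3), two-sided, with Benjamini-Hochberg adjustment, and tested on simulated data. Where a group was not well above background on any array, a fold is given as a minimum, taken against the dimmest probes above background. Genes named were E2f1, a panel, the 12 of smallest p per direction in each fit with 1 RefSeq match, and the member of smallest p of each list; other names are marked. The members, the 41 lists and the rules were chosen with earlier results of these data known. Alternatives changed scaling, background, filter, probe summary, blocks and weights, and left out arrays. Replicate numbers did not pair arrays: 1 of 24 correlated best with its own number, and 16 of 36 pairs were over 0.1.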

Additional observations from a re-analysis of the deposited data

Results flagged for a closer look

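In 11 of 72 groups of called genes and E2f1 (15.3%) 1 array lay far from the other arrays of its group, by the gap to its neighbour over the range. Chance gives about 1 in 20 for genes not chosen by their values. The called genes were so chosen, so the 2 shares cannot be compared. KO saline replicate 1 was that array in 6: it was lowest in C330011K17Rik (−3.27), Slc43a2 (−5.74), 9330159N05Rik (−3.44), BB646187 (−5.24) and TC1632596 (−3.05), and highest in Atp10d (1.97). All of these but C330011K17Rik were called only without that array, a choice that favours such a gap. The rest were WT LPS replicate 2, lowest in Atp10d (−0.74) and highest of 5 in E2f1 (−4.03), WT saline replicate 5, highest in NAP062699-1 (−2.86), and WT saline replicate 6, highest in NAP123224-1 (−3.85) and in D4Ertd681e (−3.09).

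The limma interaction of genotype and LPS was called in 17 names. With 23 arrays and, in brackets, 24 where it was also called, the interactions were 3.48 (3.40) in Sorl1, 2.59 (2.63) in Fras1, 1.94 (1.88) in Ccr3, −5.12 (−4.99) in Adamts13, −5.62 (−4.92) in C330011K17Rik, −1.34 (−1.39) in 2810403A07Rik, −6.01 (−5.43) in NAP062699-1 and −1.87 (−1.84) in NAP123224-1. With 23 arrays alone they were −3.19 in Atp10d, −2.64 in 4933409K07Rik, −1.58 in Slc43a2, −2.72 in 9330159N05Rik, −1.90 in BB646187, −2.88 in D4Ertd681e, −3.50 in ENSMUST00000107980, −2.83 in TC1605825 and −2.26 in TC1632596. The first 8 were called with and without KO saline replicate 1. No explanation of these interactions was tested. Fras1 was not well above background on any KO array, so its LPS change in KO was not measured. Sorl1 was not well above background on any KO saline or WT LPS array, so its LPS changes are limited by the background.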

How the results depend on the processing

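Counts of called interactions are given as 23 arrays and then 24 arrays, against 17 and 8. They were 3 and 2 with normexp and quantile normalization, 6 and 2 in the deposited table, 9 and 4 without a filter, 3 and 1 with a slide block, 37 and 19 with a scan day block, 3 and 3 within scan day 1, 0 and 0 within scan day 2 (1349 names at an unadjusted p of 0.05), and 164 and 141 with array weights. All 32 arrays gave 9 with 23 arrays, the stricter filter of 12 arrays 13 with 24, and leaving out KO saline 1 and KO LPS 6 h 1 of all arrays 11. With the replicate number as a block, which does not pair these arrays, they were 39 and 3. Median centring, which moved the median of all names to 0.23 and 0.22, gave 16 and 8 calls, and quantile normalization 16 and 8. Leaving out 1 array gave 7 to 31 and 4 to 17; with 23 arrays the count fell to 10 without WT saline 1 or 2, 9 without 3, 7 without KO saline 3 or 6, 8 without 4, 10 without WT LPS 1, 11 without 5, 10 without KO LPS 3 and 8 without 5, and grew to 29 without WT LPS 2 or 6 and 31 without KO LPS 1. With 24 arrays it was 5, 4 and 5 without WT saline 1, 2 and 3, 17 without KO saline 1, 4 each without KO saline 3 to 6, 13 without WT LPS 2, 15 without KO LPS 1, 4 without 3 or 4 and 5 without 5. Adamts13, Sorl1, C330011K17Rik and Fras1 were called without any 1 array in both fits. But Sorl1 and Fras1 were not called with the slide block or normexp in either, nor C330011K17Rik with 24 arrays. Sorl1 and Fras1 did not pass the stricter filter and are absent from the deposited table, so neither alternative covers them. Fras1 passed the main filter only through WT saline, the group where it was highest, and that choice favours its call. E2f1 passed with array weights, at 4.38 (adjusted p = 0.0109, limma) and 4.37 (0.00947), and ranged from 3.19 to 3.95 and 3.03 to 3.78 without 1 array.

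Of 4449 gene values under alternatives, 3911 had the same sign and side of the threshold, 342 no longer passed, 123 newly passed and 73 changed sign, none of these past the threshold. Among called genes a change of sign was found in BB646187, at 0.082 in the deposited table (0.26 with 24 arrays), and, with 24 arrays, in Ccr3 (−0.011) and Slc43a2 (0.25) in their other probes; BB646187 and Slc43a2 were called with 23 arrays. The others with 23 arrays were Alb (−0.076 by quantile, −0.0049 by normexp), Arsk (−0.33 by mean over probes, −2.28 in its other probe), Clock (0.050), Elovl3 (0.98), Il6 (−0.13), Onecut2 (0.69), Timp1 (−0.31) and Tnf (0.59) within scan day 2, Cr2 (0.37), Folr2 (−0.11), Il1b (−0.33) and Vegfa (−0.32) within scan day 1, Cxcl1 (−0.16 by normexp, −0.078 in the deposited table, −1.16 and −0.66 within scan days 1 and 2), Il1b (−0.11 with array weights and with 22 arrays), Man2a2 (−1.71) and Pygl (−0.30) in another probe, and Tnf (0.034 by quantile). With 24 arrays they were Alb (−0.068 by quantile), Arsk (−0.17 by mean over probes, −1.93 in its other probe), Cxcl1 (0.19 with array weights), Il1b (0.23 within scan day 2), Il6 (0.041 by quantile, 0.024 by median centring, 0.64 with a slide block, 0.079 with a scan day block, 0.73 within scan day 1, 0.83 with array weights), Man2a2 (−1.57) in another probe, Tnf (0.59 within scan day 2), and Vegfa (−0.078 by quantile, −0.089 by normexp, −0.031 in the deposited table, −0.32 within scan day 1, −0.24 in another probe). Without 1 array the values ranged from −0.36 to 0.70 for Cxcl1 and −0.11 to 0.35 for Il1b with 23 arrays, and from −0.010 to 0.31 for Alb, −1.58 to 0.30 for Cxcl1, −1.06 to 0.12 for Il1b, −0.57 to 0.82 for Il6, −0.13 to 1.14 for Saa1 and −0.17 to 0.29 for Vegfa with 24. The cause was not tested. Signals near background limit Sorl1, Fras1 and Adamts13, whose folds are bounds.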
